A study of Mus musculus with 148 samples.

Results

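The region described here is the 3′ part of the mouse gene *Mcm6* without the cluster of CpGs around its exon 13. It comprises every CpG, each strand counted on its own, at chr1:128331590-128337770 and chr1:128338386-128343000 of the mouse genome GRCm38, from exon 17 to intron 10 of *Mcm6*, which is read from the minus strand. The deposited files list 122 such CpGs, and 79 of them, at 46 positions, had more than 30 reads in 74 or more of the 148 samples. In the whole *Lct*–*Mcm6* locus 1102 CpGs were listed and 668 were covered. Of the 79 covered CpGs, 40 lay in exons, 39 in introns and 0 in untranslated sequence, and 70 were covered in every sample. On the 3′ side of the cluster, between it and *Lct*, 52 were covered, and on its 5′ side 27. The nearest covered CpGs lay 1790 bp from the cluster on the 3′ side and 981 bp on the 5′ side. Of the 43 that were not covered, 39 had no read in any sample.

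DNA modification was measured in enterocytes, the absorptive cells of the gut, taken from the villi of the mouse small intestine, which was cut into 9 equal segments numbered from the stomach. DNA was treated with bisulfite, which turns unmodified cytosine into uracil, captured with padlock probes and sequenced, and the result is the percentage of reads in which a cytosine was protected. The mice were labelled C57BL/6MCrl (the growth protocol spells the strain C57BL/6NCrl) and carried no engineered allele. At postnatal day 60 (P60), there were 8 samples in each segment and 7 in segment 6. At postnatal day 6 (P6), before weaning, segments 1, 3 and 7 had 3, 3 and 4 samples. From postnatal day 30, other mice were given milk in place of water for 60 days, lactose-containing with added sucrose (LAC+) or lactose-free (lac-), and were examined at postnatal day 90 (P90). LAC+ had 7 samples in each of segments 1, 3, 4, 7 and 8, and lac- had 6, 6, 7, 6 and 7. The files analysed here hold no expression of cell type markers, so the purity of the enterocytes was not checked in these data. The study itself examined it by histology and cell sorting. Replicates are separate samples by their labels, and the p-values measure the spread between these samples. The study gives smaller sample numbers for P60, LAC+ and lac- than are used here, and it mentions additional replicates. The labels do not say whether some samples repeat the same mouse and segment, and the tests would count such repeats as separate. Segments were in part taken from the same mice, and the tests treat all samples as independent unless a block is named.

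*Mcm6* encodes a subunit of the minichromosome maintenance helicase, which unwinds DNA at replication. Its neighbour *Lct* encodes lactase, the brush-border enzyme that splits the milk sugar lactose, and introns of the human *MCM6* are known to hold enhancers of *Lct*. In most mammalian tissues the bodies of transcribed genes are heavily methylated at CpGs, while active enhancers and promoters have less methylation. Bisulfite sequencing does not separate methylation from hydroxymethylation, so both are called modification here.

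Single CpGs are named by the GRCm38 position of their cytosine and its strand. The 62-base windows below are those of the 7 CpGs that passed the threshold in at least 1 comparison described further on. They are shown because the called differences along the intestine and with age are theirs. Each is written 5′ to 3′ on the named strand, from the GRCm38 reference, with the measured CpG in capitals.
CpG128335981- (chr1:128335950-128336011, minus strand, intron 13): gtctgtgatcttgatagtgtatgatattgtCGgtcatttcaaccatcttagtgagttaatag
CpG128335834+ (chr1:128335804-128335865, plus strand, exon 14): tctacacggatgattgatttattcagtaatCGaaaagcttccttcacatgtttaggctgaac
CpG128333516+ (chr1:128333486-128333547, plus strand, intron 16): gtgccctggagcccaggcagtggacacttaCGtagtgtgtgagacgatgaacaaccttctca
CpG128333406- (chr1:128333375-128333436, minus strand, intron 16): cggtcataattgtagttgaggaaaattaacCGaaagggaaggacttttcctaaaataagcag
CpG128333192+ (chr1:128333162-128333223, plus strand, intron 16): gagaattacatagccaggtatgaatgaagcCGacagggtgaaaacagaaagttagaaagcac
CpG128334746- (chr1:128334715-128334776, minus strand, intron 15): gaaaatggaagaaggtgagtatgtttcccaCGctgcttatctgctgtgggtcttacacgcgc
CpG128342437+ (chr1:128342407-128342468, plus strand, intron 10): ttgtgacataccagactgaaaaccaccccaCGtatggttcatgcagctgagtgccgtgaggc
CpG128335981- and CpG128333192+ had no other CpG in their windows. CpG128334746- had 2 others, and each of the other four had 1. CpG128333516+ lies 1 bp outside exon 16, on the base next to the exon's end.

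Of the 148 samples, each had between 132475 and 978525 reads summed over the CpGs of the region. The median was 188064 reads at P60, 331838 at P6, 374646 in lac- and 415944 in LAC+. A covered CpG had a median of 42.5 to 8575 reads per sample, and 5 CpGs had a median under 100. CpGs captured by the same probe share their reads and are not independent. All P6 samples were sequenced on lane 8, where there was no other sample, and the P60 samples mostly on lanes 5 to 7. LAC+ and lac- samples of segments 3, 7 and 8 were mostly on different lanes. All LAC+ samples of segments 1 and 4 and many other P90 samples were marked as merged, and no P60 or P6 sample was. The mark does not say what was merged, so the lane given for a merged sample may not be its only lane.

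The region was heavily modified in every group. Outside 5 CpGs that lie in probe arms, the mean over all samples ran from 66.2% to 96.0% with a median of 91.7%. Of the 79 CpGs, 47 were above 90% and 24 were between 80% and 90%. The highest were CpG128342292+ in intron 10 at 96.0%, CpG128335364- in intron 14 at 96.0% and CpG128334717- in intron 15 at 95.8%. The lowest outside the arms, chosen after their values were seen, were both strands of 1 position in exon 15, with 66.2% at CpG128334880+ and 67.2% at CpG128334881-. The other CpG position of exon 15 stood at 90.9% on its plus strand, CpG128334910+, and at 92.1% on its minus strand, CpG128334911-. Both positions had almost the same read counts on each strand, as CpGs of the same reads do, and 1 of the 2 was low. CpG128333406- in intron 16 followed at 79.8%, and its plus strand partner CpG128333405+ was at 81.8%. Cytosines outside CpGs, of which 1280 were covered in the region, had a mean of 0.443% ± 0.038 at P60 (SD, n = 71), 0.574% ± 0.030 at P6 (n = 10), 0.515% ± 0.028 in lac- (n = 32) and 0.528% ± 0.026 in LAC+ (n = 35). This level, which holds incomplete conversion and any true modification, was thus higher at P6 and P90 than at P60, by less than 0.2 points.

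**Figure D1:**
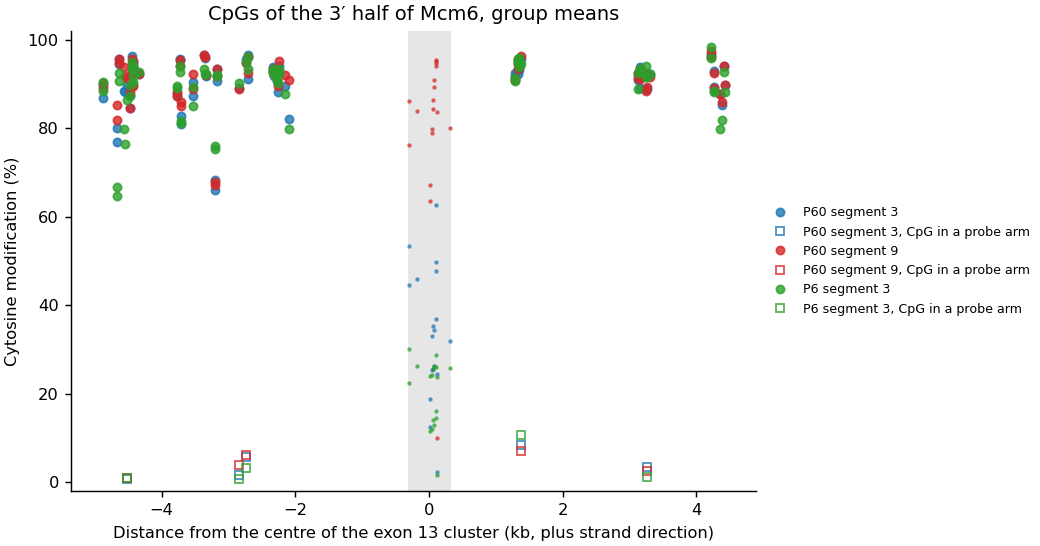
Percent modification of each covered CpG (y axis) against its distance from the centre of the exon 13 cluster in kb (x axis, plus strand direction), as means of P60 segment 3, P60 segment 9 and P6 segment 3; squares are CpGs in probe arms and small dots in the grey band are the CpGs of the cluster. On both sides of the band the filled points lie mostly above 80% in all 3 groups, and the open squares lie below 15%.

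By annotated part of the gene, and without the CpGs in probe arms, exon 12 was the most modified at 93.7% over 9 CpGs, and exon 15 the least at 79.1% over 4 CpGs. Exon 14 had 92.1% over 10 CpGs, exon 16 had 91.1% over 10 and exon 11 had 90.5% over 4. The introns held 92.7% in intron 14 (4 CpGs), 91.7% in intron 11 (4), 90.4% in intron 10 (8), 90.0% in intron 15 (12), 88.2% in intron 16 (7) and 87.8% in intron 13 (2). Exons and introns thus overlapped in level. No covered CpG lay in exon 17.

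In 5 positions the 2 strands of a CpG differed by 85.4 to 89.3 percentage points. In the other 28 positions with both strands covered, the strands differed by a median of 1.21 points and at most 5.15. All 5 low cytosines are the last base of a padlock probe arm that anneals to that strand's converted sequence, and no probe insert covers that base. The 3 pairs of strands that differed most are shown with the arm and the reference of the same strand, 5′ to 3′, the capital marking the cytosine that the arm holds as T.
CpG128333554- probe arm: tgaagaagagtttataaataaaaagaT
CpG128333554- reference (chr1:128333554-128333580, minus strand, exon 16): tgaagaagagctcataaataaaaagaC
CpG128335341+ probe arm: tttttaaattgttattatgtatatggaT
CpG128335341+ reference (chr1:128335314-128335341, plus strand, intron 14): cttttaaattgctattatgtatatggaC
CpG128335229- probe arm: attataaattgattttgttagatgtT
CpG128335229- reference (chr1:128335229-128335254, minus strand, intron 14): actacaaattgactttgtcagatgcC
CpG128333554- had 0.851% ± 0.174 (SD, n = 148), while its plus strand partner CpG128333553+ had 90.2%. CpG128335341+ had 5.99% ± 4.44 (SD, n = 134) against 95.0% at CpG128335342-. CpG128335229- had 2.11% ± 2.04 (SD, n = 138) against 88.7% at CpG128335228+. The remaining ones were CpG128341340- in exon 11 at 3.67% ± 2.70 (SD, n = 148) and CpG128339454- in exon 12 at 8.99% ± 2.75 (SD, n = 148). In the whole locus, 20 covered CpGs lay in an arm of their own strand with no insert over them, and all 20 were below 15%. The part of the probe's own bases in these 5 values was not tested, and levels below are given without them where stated.

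**Figure D2:**
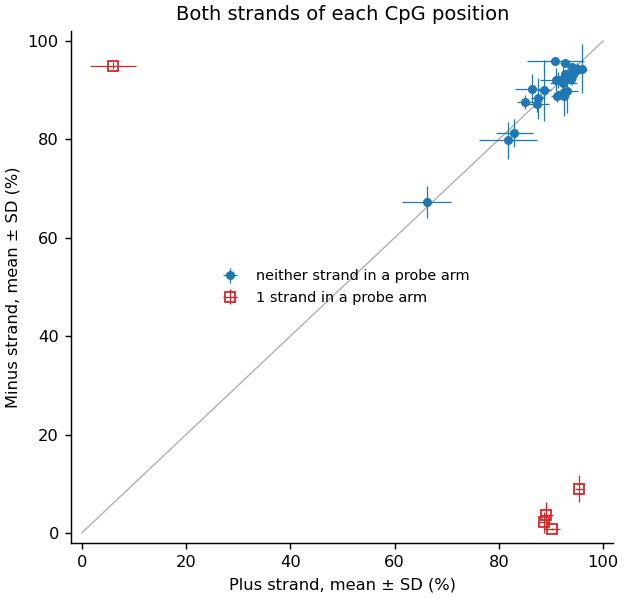
Mean percent modification ± SD over samples of the minus strand (y axis) against the plus strand (x axis) at each of the 33 positions with both strands covered; the line marks equal values. The 28 filled points lie near the line above 60%, and the 5 open squares, with 1 strand in a probe arm, lie at an axis.

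Whether modification changes along the adult intestine was asked with the 71 P60 samples. The region changed little. Its mean without the CpGs in probe arms in segments 1, 3 and 9 was 90.1% ± 0.551, 90.5% ± 0.456 and 91.2% ± 0.252 (SD over 8 samples). The mean of the exon 13 cluster over the same segments was 36.3%, 33.9% and 80.04%. That mean is over all covered CpGs of the cluster and includes a CpG in a probe arm. A quasi-binomial F test over the 9 segments, Bonferroni-adjusted across every cytosine tested in the locus and called below 0.01, called 5 of the 77 region CpGs that could be tested (6.49%). Among all CpGs of the locus it called 112 of 653, or 17.2%, and among those of the exon 13 cluster, which earlier results of these data had singled out, 18 of 18. Segment 9 was higher than segment 3 at 44 of the 77 CpGs and lower at 33, with a median difference of 0.305 points against 0.467 over all CpGs. At an unadjusted p under 0.05 there were 28 of 77 (36.4%), against 48.5% of all CpGs. The CpGs in probe arms were not left out of these counts or of the tests below, in the region or in the locus. All 5 called CpGs lay on the 3′ side of the cluster, where 52 were tested, and 0 of the 25 tested on the 5′ side were called. The difference between the sides was not tested.

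**Figure D3:**
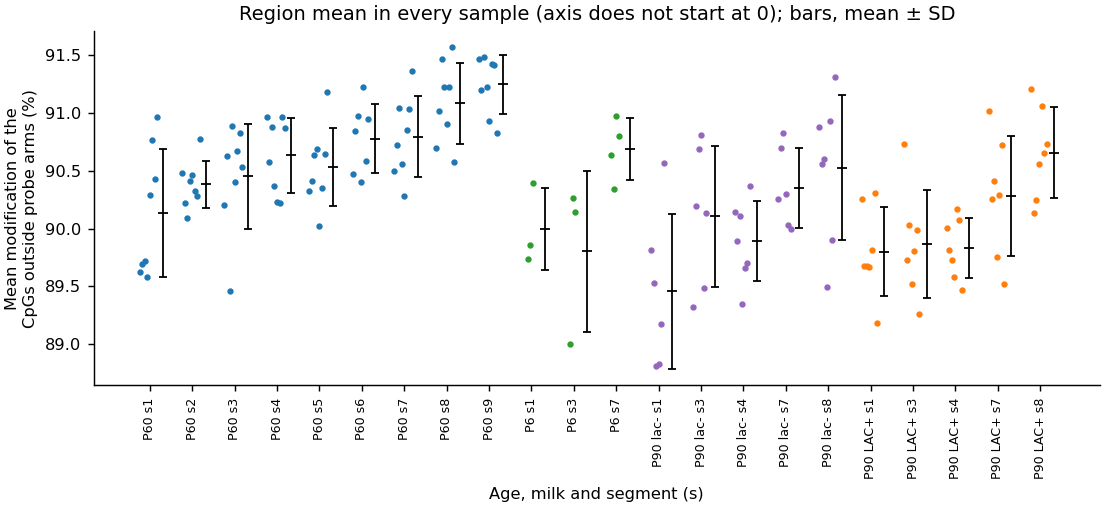
Mean percent modification of the covered CpGs outside probe arms (y axis, not starting at 0) in every sample, by age, milk and segment (x axis); points are samples and bars mean ± SD. All 148 samples lie between 88.8% and 91.6%.

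The largest difference was at CpG128335981- in intron 13, the covered CpG nearest to the cluster on the 3′ side, at -2.10 kb from the cluster's centre. From segment 1 to segment 9 its means were, in order, 83.2%, 83.1%, 82.2%, 83.8%, 85.5%, 86.5%, 88.6%, 89.8% and 91.0%. The first 4 segments thus lay within 82.2% to 83.8%, and each further segment was higher than the one before. In segment 3 the lowest, median and highest samples were 77.96%, 81.99% and 86.9%, and in segment 9 they were 87.7%, 91.7% and 92.9%, so that these segments did not overlap. Segment 9 exceeded segment 3 by 8.83 ± 1.20 points (SE), and the adjusted p over the 9 segments was 2.933e-08. For segment 9 against 3, the two-sided exact permutation test gave p = 0.00016 before any adjustment, the smallest that 8 against 8 samples allow. The quasi-binomial test of these 2 segments alone gave an adjusted p of 0.02719 and did not call it. Within lanes 5, 6 and 7 the difference was 10.2, 6.64 and 8.32 points. CpG128335929-, 52 bp away and with the same read counts, had 89.7% in segment 3 and 92.1% in segment 9 and was not called (adjusted p = 1).

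The other 4 called CpGs differed by less, and 3 of them lay in intron 16. CpG128333516+, next to the end of exon 16 and at -4.56 kb from the cluster's centre, had means of 92.0%, 88.5%, 87.0%, 91.5% and 93.9% in segments 1, 3, 5, 7 and 9, so its lowest mean fell in the middle of the intestine. Its samples ran from 85.1% to 91.0% with a median of 88.9% in segment 3, and from 92.5% to 95.1% with a median of 94.1% in segment 9, without overlap, and the adjusted p was 4.981e-04. In segment 5 its spread was the widest of the P60 segments, with an SD of 3.91 points against 0.933 in segment 9. CpG128333406-, at -4.67 kb, also had its lowest mean in the middle, 76.8% in segment 4, between 79.1% in segment 1 and 81.9% in segment 9. It ran from 74.1% to 78.5% in segment 3 and from 80.996% to 83.6% in segment 9, again without overlap, with an adjusted p of 1.181e-05. Its partner CpG128333405+ had 80.1% in segment 3 and 85.2% in segment 9 and was not called (adjusted p = 0.5107), with fewer reads. CpG128333435+ and CpG128333436-, within 30 bp of that position, chosen after their values were seen and with nearly equal read counts on each strand, differed between segments 9 and 3 by -0.03 and 0.39 points.

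CpG128333192+, at -4.89 kb, was lowest in segment 1 at 86.4% and highest in segment 9 at 89.0%. Segment 9 was above segment 3 by 2.21 ± 0.377 points (SE), the groups overlapped, and the adjusted p over segments was 2.193e-06. CpG128335834+ in exon 14, at -2.24 kb, was also lowest in segment 1, at 93.1%, and highest in segment 9, at 95.3%, with an adjusted p of 2.254e-04. Its partner CpG128335835- stood at 93.0% in segment 3 and 92.6% in segment 9. With limma on log2 odds, which gives each sample the same weight whatever its reads, 2 of the 5 CpGs were called, CpG128335981- and CpG128333516+. The next 5 CpGs by p, none of them called, were CpG128334363- (adjusted p = 0.01019), CpG128333530+ (0.07835), CpG128334541+ (0.114), CpG128339419+ (0.1648) and CpG128333405+. CpG128334363- lay just outside the threshold, and CpG128333516+ was the last inside it.

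**Figure D4:**
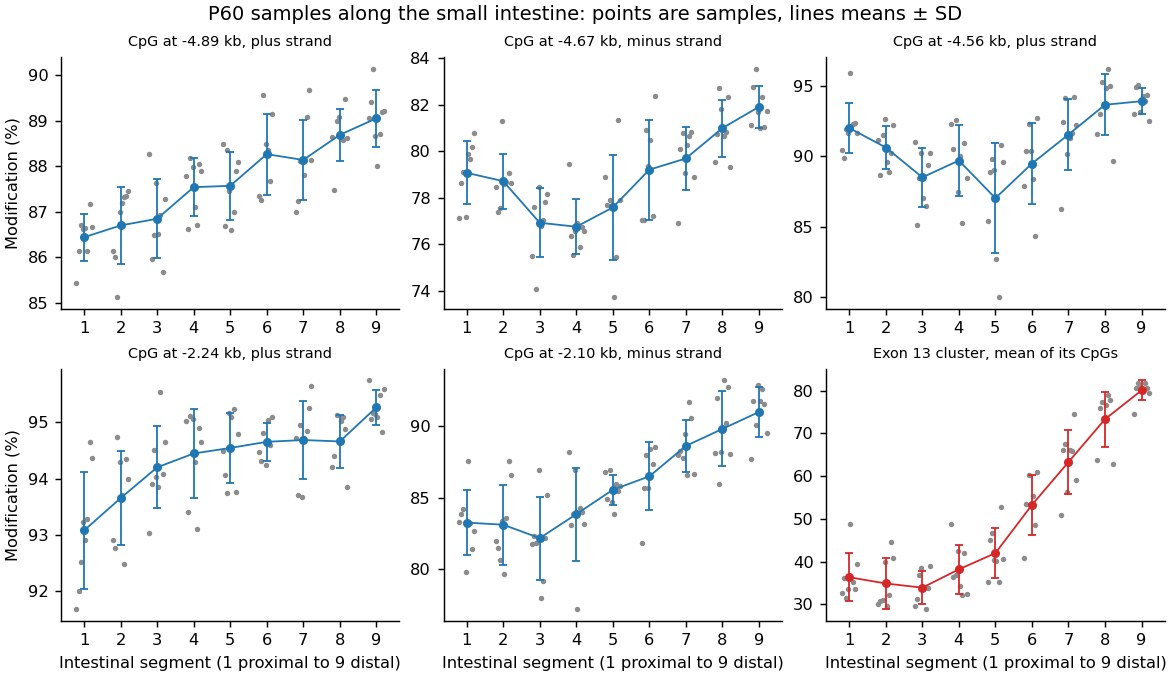
Percent modification (y axis) by intestinal segment (x axis, 1 proximal to 9 distal) at P60 for the 5 called CpGs, titled by distance from the centre of the exon 13 cluster and strand, and for the mean of that cluster; grey points are samples and lines are means ± SD. Every panel has its own y axis: the single CpGs span 2.18 to 8.83 points between their lowest and highest segment means, and the cluster mean runs from 33.9% to 80.04%.

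Segment 9 against segment 3 alone, tested in the same way on 16 samples, called 0 of 79 CpGs, with a lowest adjusted p of 0.01869. The background was 46 of 665, or 6.92%. At an unadjusted p under 0.05 there were 22 of 79 (27.8%, against 33.5% of all CpGs), and limma called 0, with 11 at that level.

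In the P90 mice, CpG128335981- also had a higher mean in the distal segment, with a smaller difference, but did not pass the threshold. It stood at 84.7% in segment 3 and 89.6% in segment 8 of lac- mice, and at 84.4% and 89.4% in LAC+ mice. In segment 3 of LAC+ the samples ran from 79.9% to 88.87% with a median of 83.4%, and in segment 8 from 88.88% to 90.0% with a median of 89.4%, so that the groups just failed to overlap, while in lac- they overlapped. CpG128335981- was called in neither test over the 5 segments (adjusted p = 0.1781 in lac- and 0.01156 in LAC+). The two-sided exact permutation test of segment 8 against 3 gave p = 0.013 in lac- and 0.00058 in LAC+, before any adjustment. With the mouse number as a block, the lac- test called 2 CpGs, CpG128334542- and CpG128335981-.

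In lac- mice, 0 of 79 region CpGs were called over the segments, against a background of 26 of 642, or 4.05%. Most lac- samples of segments 1 and 4 were on lane 3, and most of the others on lanes 6 and 7. Only 1 sample of the other segments was on lane 3, and with the lane as a covariate 0 were called. There were 32 at an unadjusted p under 0.05 (40.5%, against 57.6% of all CpGs), and limma called 0, with 15 at that level. In LAC+ mice, 1 of 79 was called, against 29 of 669, or 4.33%. This was CpG128335834+ in exon 14, whose means in segments 1, 3, 4, 7 and 8 were 92.6%, 93.3%, 93.4%, 94.3% and 94.3% (adjusted p = 8.73e-05). LAC+ had 24 CpGs at an unadjusted p under 0.05 (30.4%, against 49% of all CpGs), and limma called 0, with 14 at that level. The LAC+ samples of segments 1 and 4 were all on lane 3 and those of the other segments on lanes 1 and 2. Differences between segments 1 and 4 and the other segments thus cannot be told apart from lane. Segments 7 and 8 and all but 1 sample of segment 3 were on lane 1, though many were marked as merged. On lane 1, CpG128335834+ ran from 92.4% to 93.66% in segment 3. It ran from 93.9% to 94.8% in segment 7 and from 93.62% to 94.7% in segment 8, and the difference within this lane was not tested. At P6, 0 of 77 were called over segments 1, 3 and 7, and the background was 0 of 639, or 0%. At an unadjusted p under 0.05 the P6 test had 7 (9.09%, against 9.39% of all CpGs), and limma called 0, with 2 at that level. CpG128335981- stood at 79.9% in P6 segment 3 and at 85.5% in P6 segment 7 without overlap. The exact permutation p was 0.057, the smallest that 3 against 4 samples allow.

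Age was compared within matched segments. In intron 16, 5 of the 7 CpGs had a lower mean at P6 than at P60 in all 3 segments, and CpG128333192+ and CpG128333193- had a higher one. The 7 together had a mean of 82.05%, 81.92% and 86.1% in segments 1, 3 and 7 at P6, against 87.9%, 87.5% and 88.8% at P60. Exon 15 had 83.2%, 83.9% and 83.4% at P6 against 79.7%, 79.6% and 79.9% at P60. There both strands of 1 position, CpG128334880+ and CpG128334881-, were higher at P6 in all 3 segments, while CpG128334911- of the other position was lower in all 3 and CpG128334910+ was lower in segment 7. These means are descriptions over CpGs that share reads, and since all P6 samples were on a lane of their own, age and lane cannot be told apart in any of the differences below. The mean of the region without the CpGs in probe arms was 90.0%, 89.8% and 90.7% at P6 against 90.1%, 90.5% and 90.8% at P60, so differences in both directions left it almost the same.

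In segment 1, 1 of 77 region CpGs was called, against 4 of 641, or 0.624%. This was CpG128333406- in intron 16, whose P6 samples stood at 67.79%, 67.58% and 66.98%. The P60 samples ran from 77.1% to 80.8% with a median of 79.4%, so that the ages did not overlap. The P60 mean was higher by 11.6 points (SE 0.537, adjusted p = 0.001435). In segment 3 the P6 samples of CpG128333406- spread from 59.9% over 66.6% to 73.5%, all below the P60 range of 74.1% to 78.5%, and in segment 7 the ages overlapped at 76.6% against 79.7%. Its partner CpG128333405+ was 61.4% at P6 and 82.02% at P60 in segment 1, 64.6% and 80.1% in segment 3, and 71.4% and 83.4% in segment 7. The ages did not overlap at CpG128333405+ in any of the 3 segments, but its adjusted p in segment 1 was 0.03607 and it was not called.

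In segment 3, 0 of 79 were called, against 4 of 642, or 0.623%, and the lowest adjusted p was 0.0679. In segment 7, 2 of 79 were called, against 6 of 645, or 0.93%. CpG128342437+ in intron 10 had 76.9%, 79.9%, 80.6% and 81.1% at P6, and P60 ran from 86.2% to 88.4% with a median of 87.3%. P60 was higher by 7.81 points (SE 0.974, adjusted p = 0.008219). CpG128342437+ was also lower at P6 without overlap in segment 1, where it was 83.9% against 87.1%, and in segment 3, with 79.9% against 87.9%. CpG128334746- in intron 15 changed the other way, with P6 samples of 93.4%, 93.6%, 93.6% and 93.9% against a P60 range of 91.1% to 92.2% and a median of 91.9%. P60 was lower there by 1.85 points (SE 0.157, adjusted p = 0.007822). In segments 1 and 3 the ages overlapped at CpG128334746-. In the 3 segments, 32, 29 and 31 region CpGs had an unadjusted p under 0.05 (41.6%, 36.7% and 39.2%, against 35.4%, 31.3% and 42.8% of all CpGs), and limma called 0 in each, with 19, 15 and 20 at that level. The age by segment interaction called 0 of 77, against 0 of 639 (0%), with 8 at an unadjusted p under 0.05 (10.4%, against 16.7% of all CpGs). Leaving out P6 replicate 2 or 3 in turn left 0 called in segment 1, and leaving out 1 P6 replicate in segment 7 left 1 without replicate 2 and 0 without replicate 1, 3 or 4.

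Among CpGs that were not called, CpG128333530+ at the end of exon 16 was at 78.8%, 76.5% and 82.95% in P6 segments 1, 3 and 7, and at 89.6%, 88.1% and 89.8% at P60. Its neighbour CpG128333516+, called over the P60 segments and with almost the same read counts, was at 84.4%, 79.97% and 82.96% at P6 and 92.0%, 88.5% and 91.5% at P60. CpG128334881- in exon 15, chosen after its values were seen, was 74.9%, 75.4% and 76.4% at P6 and 67.4%, 68.4% and 67.9% at P60, without overlap in any of these segments. Its adjusted p was 0.632 in segment 1 and it was not called.

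**Figure D5:**
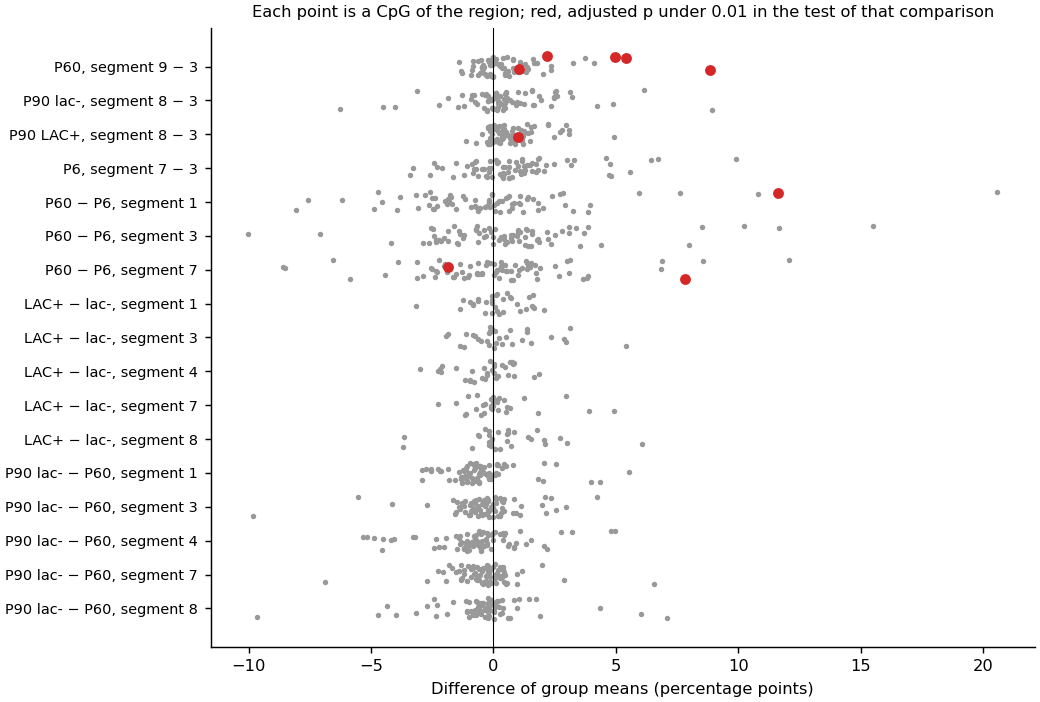
Difference of group means in percentage points (x axis) for each tested CpG of the region, by comparison (y axis); for tests over several segments the difference plotted is the distal segment named minus segment 3. Red points had an adjusted p under 0.01 in the test of that comparison. The age comparisons spread most, from -10.0 to 20.6 points, and the comparisons of milk have no red point.

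The comparison of milk addressed whether lactose after weaning alters modification. It was run on CpGs with a mean of at most 90%, so that 33, 33, 33, 32 and 30 region CpGs entered in segments 1, 3, 4, 7 and 8. Of these, 0 were called in each segment, where the background was 0 of 414, 0 of 357, 0 of 388, 0 of 323 and 0 of 332 (0%). At an unadjusted p under 0.05 there were 0, 1, 5, 1 and 1 (0%, 3.03%, 15.2%, 3.12% and 3.33%, against 6.76%, 5.32%, 5.93%, 14.2% and 20.5% of all CpGs), and limma called 0 in each, with 0, 1, 3, 1 and 2 at that level. The median size of the difference was 0.681, 0.755, 0.752, 0.476 and 0.601 points, against a median SE of 0.893, 1.13, 0.851, 0.957 and 0.859. The differences of LAC+ minus lac- spanned from -3.70 to 6.08 points over the segments, both limits in segment 8. At CpG128335981- they were 1.66 ± 1.12, -0.25 ± 1.83, 0.18 ± 1.02, -0.69 ± 1.06 and -0.20 ± 0.789 points (SE). At CpG128333405+ LAC+ was higher in segment 7, with 84.6% against 81.6%, but the samples overlapped and the adjusted p was 1. The diet by segment interaction called 0 of 33, against 0 of 353 (0%), with 0 at an unadjusted p under 0.05, and limma called 0, with 1. In each of segments 3, 7 and 8 only 1 lac- sample was on a lane that also held LAC+ samples of that segment, and the fits with the lane as a covariate, which rest on that sample there, called 0 in each of the 5 segments.

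The lac- mice were also set against the P60 mice, which were younger and drank no milk. In segments 1, 3, 4, 7 and 8, 0 of 79 region CpGs were called, and the background was 0 of 665 (0%), 1 of 649 (0.154%), 1 of 668 (0.15%), 0 of 642 (0%) and 0 of 660 (0%). At an unadjusted p under 0.05 there were 25, 15, 34, 10 and 14 (31.6%, 19%, 43%, 12.7% and 17.7%, against 32.2%, 21.4%, 53.9%, 14.3% and 18.6% of all CpGs), and limma called 0 in each, with 8, 2, 17, 3 and 4 at that level. In segments 1 and 4 most lac- samples were on lane 3, which held no P60 sample, and with the lane as a covariate 0 CpGs were called in each of the 5 segments. The lac- samples were lower at 62, 54, 59, 52 and 54 of the 79 CpGs, with median differences of -0.712, -0.354, -0.636, -0.282 and -0.317 points. Over all CpGs of the locus the medians were -0.780, -0.376, -0.890, -0.237 and -0.379 points. CpG128333406- went against this, being higher in lac- by 2.57, 4.23, 4.96, 1.98 and 1.75 points in the 5 segments. In segment 3 its lac- samples ran from 79.7% to 82.4% and its P60 samples from 74.1% to 78.5% without overlap, but it was not called, with an adjusted p of 1 in segment 3 and 0.9009 in segment 4. Its segment 3 mean was 66.7% at P6, 76.9% at P60 and 81.15% in lac- at P90. Neither difference was called in segment 3. Age cannot be told apart from lane in the first, nor from milk in the second.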

How the data were processed

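The authors trimmed reads with Trimmomatic 0.32, mapped them with Bismark and deposited, for each cytosine and sample, unnormalized counts of modified and unmodified reads on GRCm38. These counts were used as deposited, and percent modification is modified reads over all reads. Of 17903 cytosines, 17853 had the reference's trinucleotide. Cytosines were tested where 3 or more samples per group had over 30 reads, by a quasi-binomial F test (1 dispersion per cytosine, at least 1), with Bonferroni correction over CpGs and CpHs and a threshold of 0.01 (diet: CpGs up to 90% only, after the study's methods). The second test was limma 3.58.1 in R 4.3.3 on log2 odds with a pseudocount of 0.5. Single CpGs were also compared with two-sided exact permutation tests (SciPy 1.17.1). Scripts were tested on simulated data. Exons are those of GENCODE transcript Mcm6-201, and probe arms were matched to GRCm38. Intervals and SEs cover the spread between samples. PCR reads are not independent molecules.

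The named CpGs were the 10 of lowest p over the P60 segments, those past the threshold elsewhere, the 3 nearest to each side of the cluster, the 3 lowest and 3 highest in level, and the 3 positions whose strands differed most. Others are said to be chosen after their values were seen. The region, CpG rules and comparisons were chosen with earlier results of these data known.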

Additional observations from a re-analysis of the deposited data

Results flagged for a closer look

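Dixon's test, run on 30 sets of sample values, flagged 1 sample far from the others in 3 of them. Chance does so in about 1 of 20. All 3 were groups compared by the mean over all covered CpGs of the region. In P60 segment 4, replicate 6 stood at 86.7404%, with the next sample at 85.5%. In P60 segment 6, replicate 5 stood at 87.6110%, with the next at 85.3%. In P60 segment 8, replicate 4 stood at 87.6751%, with the next at 85.96%. Each of these samples had 3 of the 5 CpGs in probe arms covered, where the median of its group was 5. Without the CpGs in probe arms they stood at 90.2%, 91.2% and 91.2%. There the segment 4 sample was the lowest of its group, which reached 91.0%, the segment 6 sample was the highest of its group, which began at 90.4%, and the segment 8 sample lay below the highest of its group, 91.6%. Samples without a flag also stood apart. In P60 segment 2, replicates 2 and 7 were at 86.77% and 86.83%, with the next sample at 85.75%. Without the CpGs in probe arms, replicates 2 and 7 were at 90.2% and 90.3%, inside their group's range of 90.1% to 90.8%.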

How the results depend on the processing

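Of the alternatives, 129 values for counts of called CpGs and region means stayed the same and 27 moved. The P60 segments gave 5 called CpGs with the replicate number as a block, with the mouse number as a block, with the lane as a covariate and with coverage of more than 10 reads, 6 with more than 100 reads, but 2 with limma and 12 with Benjamini-Hochberg correction at 0.05. That correction gave 6 for P60 segment 9 against 3, 6 for the lac- segments, 7 for the LAC+ segments, 14, 11 and 14 for age in segments 1, 3 and 7, and 3, 15 and 2 for lac- against P60 in segments 3, 4 and 8. A replicate block by the mouse numbers of the file names gave 2 for the lac- segments, CpG128334542- and CpG128335981-. Limma gave 0 for the LAC+ segments and for age in segments 1 and 7, and so did the replicate block for age in segments 1 and 7. Leaving out 1 P6 sample at a time gave 0 to 1 called CpGs in segment 1 (0 without replicate 2 or 3) and 0 to 1 in segment 7 (1 without replicate 2, 0 without any other). The cause was not tested, beyond the smaller number of samples. Of the single CpGs, CpG128333192+, CpG128333406- and CpG128335834+ had an adjusted p of 1, 0.19 and 1 with limma. The region mean over all P60 samples, 85.3%, was 88.4% from pooled reads, 87.0% over CpGs covered in every sample, 87.1% over those with more than 100 reads and, added after the data were seen, 90.7% without the CpGs in probe arms. The labels do not say that a replicate number marks a shared mouse, so the main tests did not pair samples by number. Correlation cannot decide whether samples share a mouse, and not every same-numbered pair correlated above 0.1. Same-numbered samples had a mean correlation of 0.038 at P60 (110 of 280 pairs above 0.1; other pairs -0.005) and of 0.421 at P6 (7 of 9; other pairs -0.148). By mouse number the means were 0.090 at P60 (other pairs -0.013) and 0.180 in lac- (other pairs -0.030). Age and the LAC+ segments could not be fitted with the lane, and milk could not be compared on shared lanes in segments 3, 7 and 8. Adjacent CpGs share reads, and 5 CpGs had a median under 100 reads, where small differences were not detectable.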
